A study of Mus musculus with 20 samples.

Results

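The clustered protocadherins are neuronal cell adhesion genes that stand in 3 neighbouring clusters, alpha, beta and gamma, on mouse chromosome 18. Members were chosen as the protein-coding genes of these 3 clusters, by symbol, with at least 10 counts in at least 3 libraries. Of 57 candidates among the 54532 genes of the table, 54 were members, 12 of 14 in alpha, 22 of 22 in beta and 20 of 21 in gamma. The other 3, Pcdha4, Pcdhga10 and ENSMUSG00000102206, did not reach that level. In the annotation 2 genes carry the symbol Pcdha11, and the member is ENSMUSG00000007440.

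RNA sequencing of hypothalamus from male C57BL/6J mice gave 20 libraries. The acute arm held 5 acute control libraries (control diet) and 4 acute Gly-Low libraries (the Gly-Low diet, whose added compounds lower glycation), all from mice 4 months old after 1 week of diet. The other arm, on ageing, comprised 4 libraries of young control mice (3 months old, 1 week of control diet), 4 old control libraries (25 months old, 5 months of control diet) and 3 old Gly-Low libraries (25 months old, 5 months of Gly-Low diet). The labels name no transgene or deletion in any group, and do not say whether each library is a separate animal, so p-values measure the spread between these samples, which may be technical.

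Clustered protocadherins are single-pass membrane proteins with cadherin repeats that bind an identical protein on a facing membrane. Each neuron transcribes its own combination of them from alternative promoters, a choice set by CTCF, cohesin and DNA methylation, and the combination lets branches of one cell recognise and avoid each other. The C-type genes at the ends of the alpha and gamma clusters (Pcdhac1, Pcdhac2, Pcdhgc3, Pcdhgc4 and Pcdhgc5) are less subject to this random choice. Pcdhac2 is known for its role in serotonin neurons, and Pcdhgc4 for the survival of interneurons.

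In GRCm38 the alpha members span chr18:36930184-37187661, the beta members chr18:37264938-37524479 and the gamma members chr18:37661793-37841873, all on the plus strand. Each of the 32 alpha and gamma members has its own large first exon, the variable exon, joined to 3 constant exons that its cluster shares. These constant exons add 2860 bases to an alpha transcript and from 2116 to 2119 bases to a gamma transcript. Reads over bases that several genes share had mostly gone uncounted: 1173 of 1228 genes with no exon base of their own had 0 counts in every library. In 11 of 12 alpha and 9 of 20 gamma members all countable bases, those no other gene shares, lie in the variable exon, at the 5′ end of transcripts that were selected by their poly-A tails. In the other 11 gamma members part of them lies elsewhere, up to Pcdhgb5, where the first exon holds 55.3%; in Pcdhgc5 it holds 56.9%, in Pcdhgc3 57.9% and in Pcdhgc4 83.5%. The beta genes have 1 exon each and share no constant exon.

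In level per kilobase, the mean CPM (the count scaled to library size, with TMM factors) over all 20 libraries divided by the exon bases a gene shares with no other gene, the C-type genes Pcdhac2 and Pcdhgc4 had the highest means of their clusters. Pcdhac2 stood at 6.36 ± 2.96 (SD, n = 20 libraries) per kilobase, ahead of Pcdha9 at 2.22 and Pcdha12 at 1.63. In gamma, Pcdhgc4 (5.24 ± 3.04), Pcdhgc3 (4.66 ± 2.89) and Pcdhga6 (4.59 ± 2.04) lay within each other's spread. By group, Pcdhac2 had the highest mean of alpha in all 5 groups. Pcdhgc4 had that of gamma in acute control (8.24 per kilobase) and young control (6.12). It came after Pcdhgc3 and Pcdhga6 in acute Gly-Low (1.13, against 2.10 and 1.76), old control (4.00, against 4.15 and 4.38) and old Gly-Low (6.22, against 7.16 and 6.90). The SDs of these gamma genes ran from 1.97 to 4.21 in young control, 0.97 to 1.96 in old control and 1.38 to 3.61 in old Gly-Low. Their order in those groups lay within that spread. By CPM without length, Pcdhgc4 ranked 1 in gamma over all 20 libraries. In beta, Pcdhb9 came first at 5.53 ± 2.25 per kilobase, followed by Pcdhb17 (4.02) and Pcdhb12 (3.64), the last of which keeps only 1107 countable bases. The other C-type members were lower, with Pcdhgc5 at 0.87 and Pcdhac1 at 0.75 per kilobase.

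The libraries themselves differed in ways that touch these genes. Transcripts of the mitochondrial genome made up 5.35% to 9.11% of each acute control library and 17.0% to 23.3% of each acute Gly-Low library. The length slope of a library, the slope of its log2 CPM deviation on log2 transcript length over all genes, ran from -0.43 to -0.23 in acute Gly-Low and from 0.14 to 0.23 in acute control, so long transcripts made up relatively less of the acute Gly-Low libraries. In the ageing arm, young control 2 (slope -0.27, mitochondrial share 17.2%) and old control 3 (-0.20, 15.8%) stood closest to acute Gly-Low. Pituitary transcripts, summed over 6 markers, reached 61805 CPM in acute control 2, 32701 in acute control 5 and 3732 in acute control 3, followed by 1229 in old Gly-Low 1, and lay between 7.17 and 744 CPM in all other libraries. The 8 hypothalamic markers, among them Pmch, Avp, Oxt and Agrp, were detected in all 20 libraries. Of the serotonin neuron markers, Slc6a4 was at 0 in 5 libraries, Fev was at 0 in 10 and Tph2 never exceeded 1.07 CPM, so the Pcdhac2 counts come from tissue in which the defining genes of serotonin neurons were near 0.

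All 3 clusters were lower in acute Gly-Low than in acute control, gamma most and beta least. The summed level of the 20 gamma members was 121, 171, 180, 147 and 161 CPM in the acute control libraries and 27.7, 35.6, 35.8 and 24 CPM in acute Gly-Low. The alpha members summed to 58.0 to 67.1 CPM in acute control and to 13.8 to 19.4 CPM in acute Gly-Low, and the beta members to 155 to 221 CPM against 69.2 to 101 CPM. In each cluster every acute Gly-Low library lay below every acute control library. The ratio of group means was 5.07 for gamma, 3.75 for alpha and 2.12 for beta. Within a library, the gamma to beta ratio was 0.55 to 1.16 in acute control and 0.27 to 0.40 in acute Gly-Low. Control libraries of the ageing arm also had low ratios, 0.22 in young control 2, 0.35 in old control 2 and 0.19 in old control 3. The ratio ran up to 1.17 in young control and 0.63 in old control, and from 0.56 to 1.18 in old Gly-Low.

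**Figure D1:**
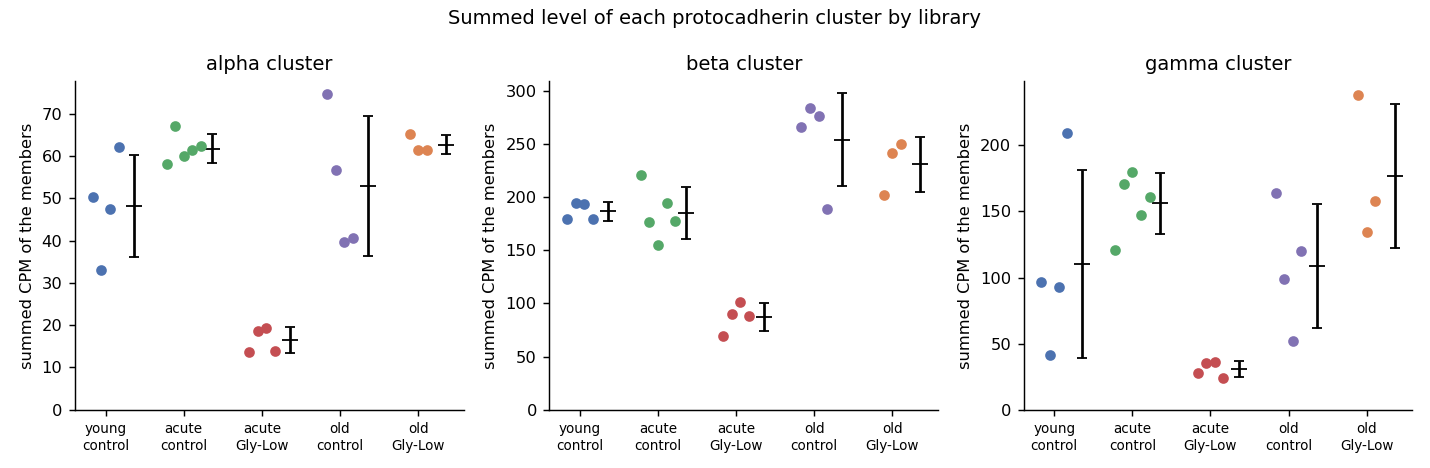
Summed CPM of the 12 alpha, 22 beta and 20 gamma members (vertical axes, each from 0) in each library (points) of the 5 groups, with black bars for the group mean ± SD. The acute Gly-Low libraries lie below all others in each panel, while gamma spreads from 41.8 to 209 CPM among the 4 young control libraries and beta only from 179 to 194 CPM.

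Gene by gene, 50 of the 53 members tested fell in acute Gly-Low and 0 rose (edgeR quasi-likelihood test with Benjamini-Hochberg adjustment at 0.05 over 17161 genes). Over all genes tested, 30.5% were called lower in this comparison, with a median log2 difference of -0.07. By cluster, 11 of 12 alpha members fell (median log2 difference -1.88), 19 of 21 beta members (-1.33) and 20 of 20 gamma members (-2.43). In 46 of the 53 the CPM of the 2 groups did not overlap, against 24.5% of all genes tested lying wholly below. Most members are long: 36 of them belong to the longest 20% of genes, with transcripts over 4220 bases, and of those genes 60.8% were called lower, with a median of -0.80.

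Pcdhgc4, a C-type gamma gene, read 24.9, 32.3, 31.0, 27.9 and 27.1 CPM in the acute control libraries and 3.88, 3.98, 4.53 and 3.34 CPM in acute Gly-Low. Its log2 difference was -2.81 ± 0.16 (SE, n = 5 and 4; edgeR adjusted p = 1.4e-07), the smallest p among the members. Pcdhac2, a C-type alpha gene, read 29.0, 24.3, 27.3, 26.7 and 27.5 CPM against 5.43, 6.83, 9.91 and 6.02 CPM, a log2 difference of -1.89 ± 0.18. In both genes the groups lie far apart. The libraries of a group lie close together, save for Pcdhac2 in acute Gly-Low, which ran from 5.43 to 9.91 CPM. All 5 C-type members fell, Pcdhgc5 by 2.74, Pcdhac1 by 1.69 and Pcdhgc3 by 1.5 on the log2 scale. Among the variable gamma genes, Pcdhga7 read 11.9 to 13.6 CPM in acute control and 1.82 to 3.27 CPM in acute Gly-Low (log2 difference -2.30 ± 0.21). The lowest fitted value in the family was that of Pcdhgb1, a gene of few counts, at -3.78 ± 0.60, where acute Gly-Low read 0.0596, 0.377, 0.359 and 0 CPM.

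In beta the differences ran from -2.09 for Pcdhb2 to -0.35 for Pcdhb11. Pcdhb3 (-1.90 ± 0.27) and Pcdhb18 (-1.60 ± 0.26) had the smallest p-values. At the other end, Pcdhb9, the highest beta gene per kilobase, read 11.6 to 20 CPM in acute control and 9.36 to 10.5 CPM in acute Gly-Low, a fall of only 0.48 ± 0.19 on the log2 scale (adjusted p = 0.0461). The 3 members that did not pass were Pcdhb8 (-0.43 ± 0.27, adjusted p = 0.178), Pcdhb11 (-0.35 ± 0.23, adjusted p = 0.203) and Pcdha1 (-0.08 ± 0.56), the last read from under 2 CPM in every library. Pcdhb1, with at most 2.44 CPM in the acute arm, was too low to test there.

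**Figure D2:**
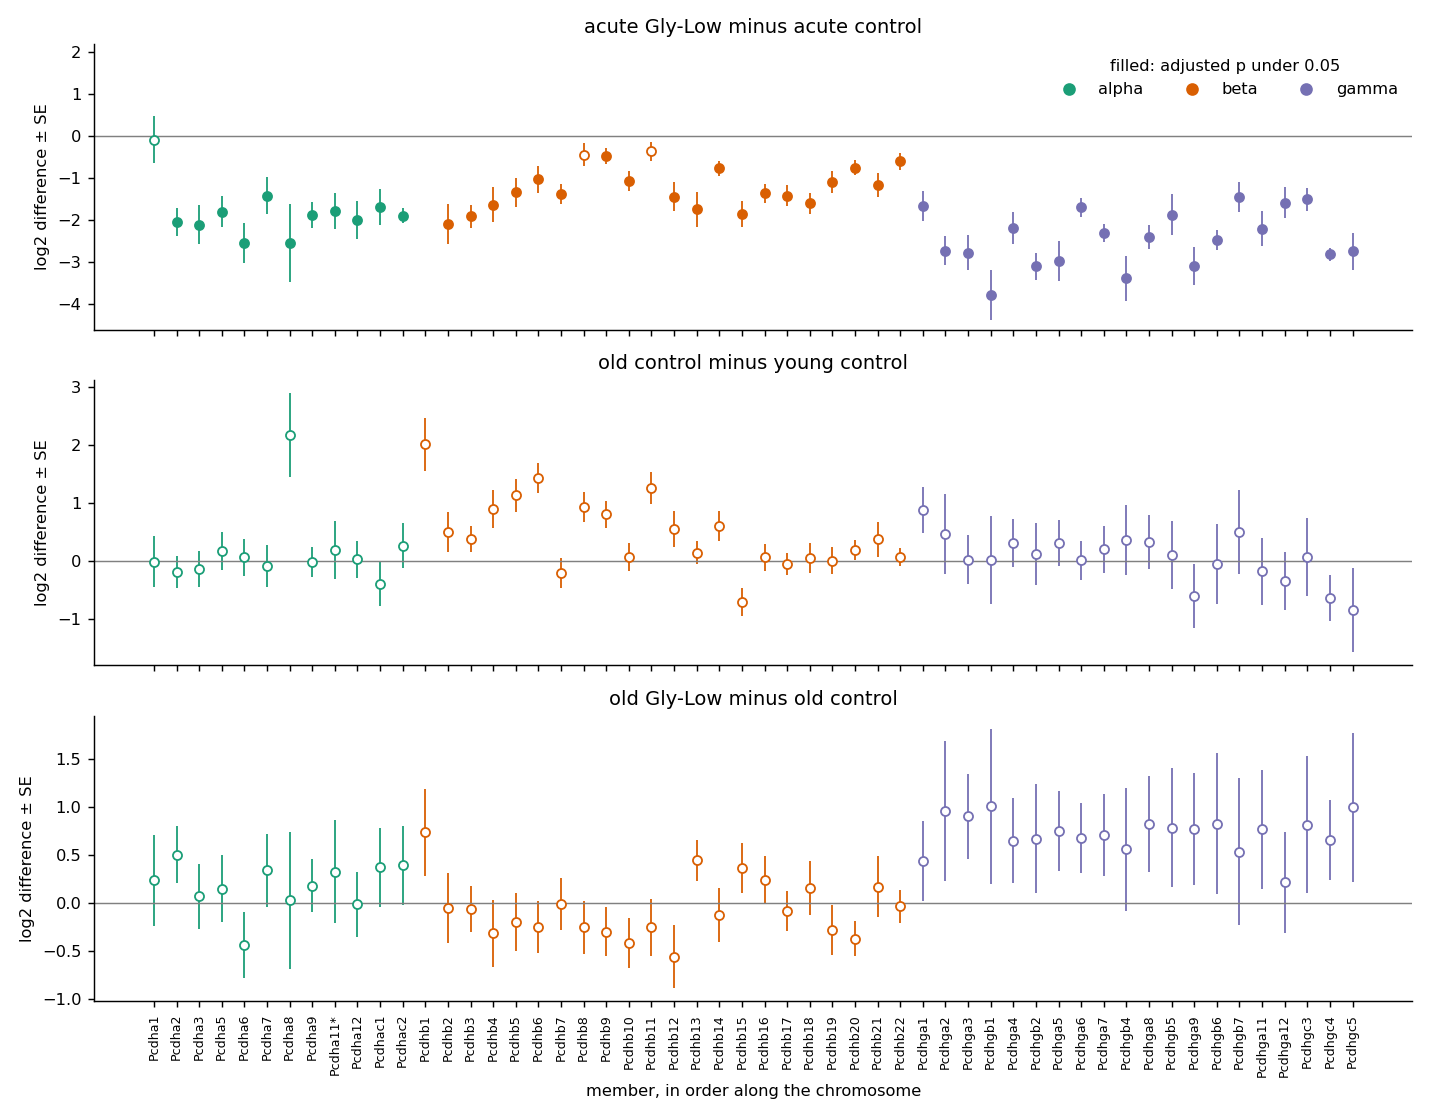
Log2 difference (points, ± SE as bars) of each member in order along the chromosome for acute Gly-Low minus acute control, old control minus young control and old Gly-Low minus old control; filled points passed an adjusted p of 0.05, and the asterisk marks the Pcdha11 gene ENSMUSG00000007440. The upper panel holds 50 filled points, all below 0 and lowest in gamma; the other panels hold none, with beta members from Pcdhb1 to Pcdhb11 mostly above 0 in the middle panel and all 20 gamma members above 0 in the lower one.

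The count of members that fell depends on how transcript length is treated. With an offset that removes the trend of each library over transcript length, 36 members were called lower (7 alpha, 12 beta and 17 gamma), where 23.9% of all genes were. In a model of all 20 libraries that adds each one's length slope as a term, 20 were called lower, 5 in alpha, 14 in beta and 1 in gamma, where 8.76% of all genes were. The median log2 difference in that model was -1.59 in alpha, -1.23 in beta and -0.69 in gamma, with 0.17 over all genes. That 1 gamma member was Pcdhgc4, at a log2 difference of -1.24 (adjusted p = 0.0028), while Pcdhac2 stood at -0.40 (adjusted p = 0.4). The slope separates the 2 acute groups without overlap, so diet and length slope cannot be told apart within this arm. Without acute controls 2, 3 and 5, the libraries with the most pituitary transcripts, 44 members fell, where 21.1% of all genes did.

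Other lists of the pathway also held called genes in the same comparison, in which 30.5% of all genes were called lower and 27.8% higher. Of genes with transcripts over 4220 bases, 60.8% were called lower, with a median log2 difference of -0.80. Whether the lists differed from genes of similar length was not tested. Of 19 tested regulators of the clusters, 11 fell and 1 rose: Dnmt1, the maintenance DNA methyltransferase, fell by 2.45 on the log2 scale, the cohesin subunit gene Smc1a by 1.55 and the de novo methyltransferase gene Dnmt3a by 1.40, while the cohesin subunit gene Stag2 rose by 0.84. Ctcf, whose protein bridges the promoters and enhancers of the clusters, fell by 0.36. Among non-clustered protocadherins, which are single genes elsewhere in the genome, 9 of 11 fell, with Pcdh18 at -1.40, Pcdh15 at -1.33 and Pcdh9 at -0.99. Of 19 partners and processing genes, 13 fell and 2 rose, with Cyfip2 of the WAVE complex at -1.86 and Brk1, a small WAVE subunit, at 1.33. The median over the non-clustered protocadherins was -0.79, beside -1.77 over the clustered members.

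Marker sums of several cell types differed between these groups, in both directions. The 11 neuron markers summed to 5197 to 6629 CPM in acute control and 3581 to 4113 CPM in acute Gly-Low, and none of them was at 0 in any library. The 6 astrocyte markers summed to 2833 to 3657 CPM against 2032 to 2666 CPM, and the endothelial markers to 66.1 to 87.8 CPM against 51.4 to 64.4 CPM. The 8 hypothalamic markers were higher in acute Gly-Low without overlap, at 1414 to 2484 CPM against 437 to 1206 CPM. Oligodendrocyte markers overlapped, at 7017 to 10058 CPM in acute Gly-Low and 4791 to 8915 CPM in acute control. Fewer cells of a type and less RNA per cell cannot be told apart in bulk tissue, and the part of these shifts, of the mitochondrial share and of the length slope in the protocadherin result was not tested beyond the fits above.

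Between young control and old control, the beta cluster had the largest ratio of summed levels, 1.36, beside 1.10 for alpha and 0.987 for gamma. Old control mice had 5 months of control diet and young control mice 1 week. Age and length of feeding thus cannot be told apart in this comparison, called the age comparison below. The beta members summed to 179, 194, 193 and 179 CPM in young control and to 266, 284, 276 and 189 CPM in old control, where only old control 4 lies among the young values. Alpha totals (33.0 to 62.1 CPM in young control, 39.7 to 74.7 in old control) and gamma totals (41.8 to 209 and 51.9 to 164 CPM) overlapped widely. None of the 54 members passed in the edgeR test of old control against young control (0 called), where 6 of 18281 genes did, which is 0.0328%. At an unadjusted p under 0.05 there were 11 members, 9 of them in beta, of 54, while 9.1% of all genes had such a p. In beta 19 of 22 members had a positive log2 difference, with a median of 0.37, while 51.9% of all genes were positive, with a median of 0.02. The gene that added most to the beta total was Pcdhb14, at 17.1 to 24.3 CPM in young control and 21.7 to 44.5 CPM in old control (0.60 ± 0.26, adjusted p = 0.52), and with Pcdhb9, Pcdhb6, Pcdhb11, Pcdhb8 and Pcdhb5 it made up 79.7% of the difference in the mean beta total.

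Glial markers also separated these groups. The astrocyte markers summed to 2470 to 3066 CPM in young control and 3349 to 4095 CPM in old control, the oligodendrocyte markers to 4884 to 5663 CPM and 7335 to 8885 CPM, and the microglia markers to 112 to 170 CPM and 173 to 228 CPM, none overlapping. The neuron markers overlapped, at 4985 to 5936 CPM and 4828 to 6224 CPM. The part of these shifts in the protocadherin levels was not tested.

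Pcdhb6 read 7.37, 4.27, 4.89 and 6.18 CPM in young control and 15.1, 18.9, 17.2 and 11.1 CPM in old control. All 4 old values lie above all 4 young ones, and the log2 difference was 1.43 ± 0.26 (SE, n = 4 and 4; edgeR adjusted p = 0.0994). Pcdhb11 read 5.87, 5.94, 7.34 and 5.51 CPM in young control and 16.5, 16.2, 18.9 and 8.45 CPM in old control, a difference of 1.26 ± 0.28 (adjusted p = 0.142). Pcdhb5 read 2.54 to 5.84 CPM against 7.63 to 13.4 CPM (1.13 ± 0.29, adjusted p = 0.208). Pcdhb1, Pcdhb8 and Pcdhb9 were likewise apart, at 2.01 ± 0.46, 0.93 ± 0.26 and 0.81 ± 0.23, with adjusted p-values of 0.157, 0.256 and 0.28. Together with Pcdha8 (2.17 ± 0.73, from at most 0.637 CPM in young control) they made 7 members whose old control libraries all lay above the young control ones, where 2.82% of all genes did. In the other direction Pcdhb15 read 3.73 to 5.36 CPM in young control and 1.85 to 3.50 CPM in old control (-0.71 ± 0.25, adjusted p = 0.383).

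**Figure D3:**
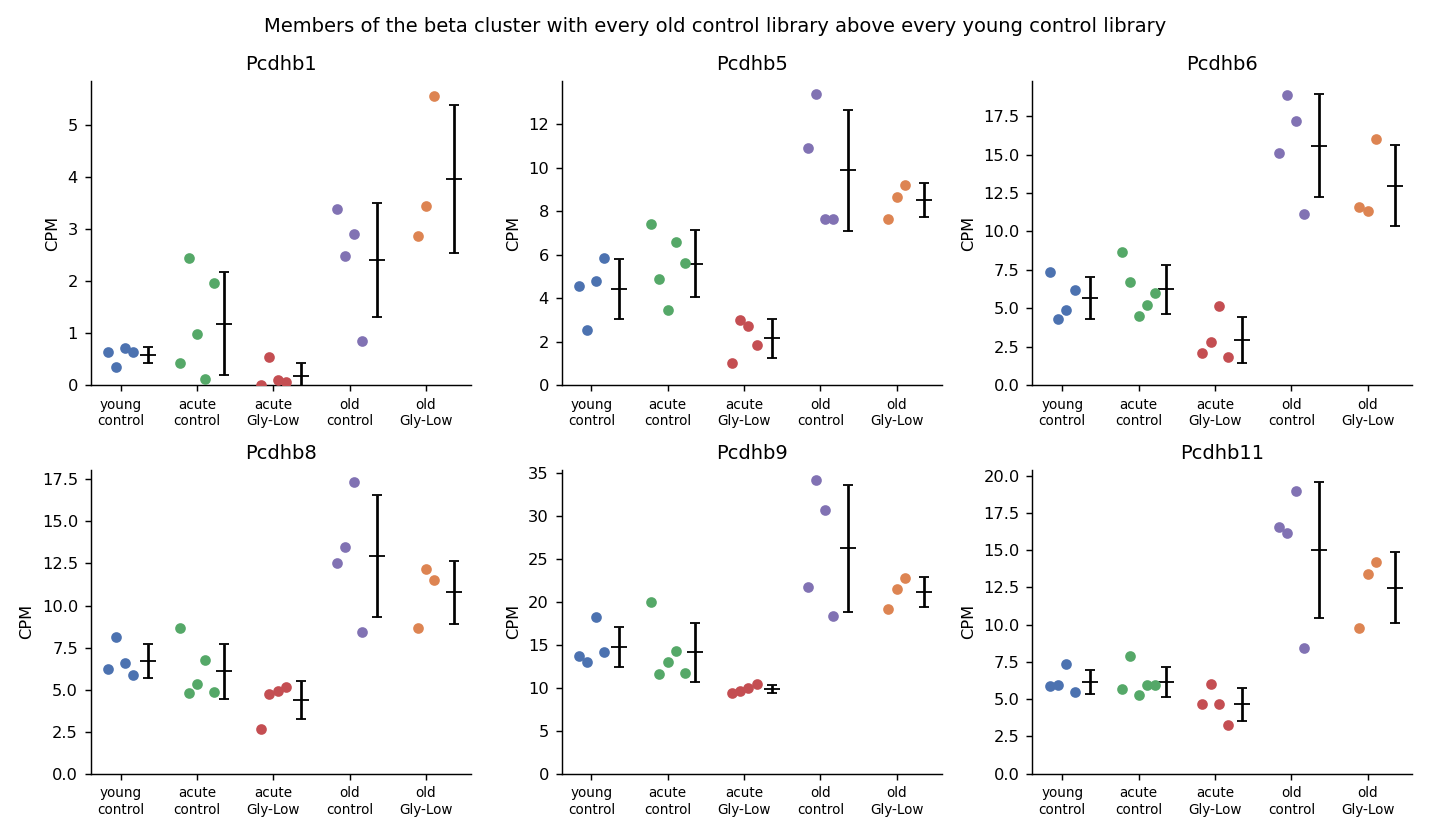
CPM in each library (points, vertical axes from 0) of the 6 beta members whose 4 old control libraries all lie above the 4 young control libraries, with the group mean ± SD as black bars, cut at 0. For Pcdhb5, Pcdhb6 and Pcdhb11 all 7 old libraries also lie above the 5 acute control libraries, and Pcdhb6 lies at 11.1 CPM or more in every old library.

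The acute control libraries, from mice 4 months old, give another young reference, set against the same old libraries. For Pcdhb5, Pcdhb6 and Pcdhb11 all 4 old control libraries lay above all 9 young and acute control libraries, which held for 0.845% of the 19061 genes tested in the fit on all groups. For the same 3 genes the 7 old libraries of either diet lay above those 9, which held for 0.441% of genes. Across the 9 control libraries of young mice Pcdhb6 ran from 4.27 to 8.67 CPM with a median of 6.02, and across the 7 old libraries from 11.1 to 18.9 CPM with a median of 15.1. With acute control in place of young control as the reference, edgeR called 2 members higher, Pcdhb6 (1.32, adjusted p = 0.0429) and Pcdhb11 (1.29, adjusted p = 0.0117), where 0.331% of genes were called. This reference comes from another arm of the study, so age, length of feeding and arm cannot be told apart in it.

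Other fits of old control against young control called some members higher. The edgeR fit on all 5 groups called the same 2, Pcdhb6 (adjusted p = 0.0315) and Pcdhb11 (adjusted p = 0.0208), where 0.367% of genes were called. DESeq2 called 7 members, Pcdha8, Pcdhb1, Pcdhb5, Pcdhb6, Pcdhb8, Pcdhb9 and Pcdhb11, where 1.15% of genes were called. The limma-voom fit with quality weights called these 7 and Pcdhga2, where 9.43% of genes were called. With the length slope as a covariate 4 were called, Pcdhb6, Pcdhb8, Pcdhb9 and Pcdhb11, where 1.12% of genes were called, and 1 member, Pcdhgc4, was called lower (-0.94, adjusted p = 0.0044). Over the alternatives the log2 difference of Pcdhb6 ran from 1.14 to 1.59 with adjusted p-values from 9.8e-06 to 0.618. That of Pcdhb11 ran from 1.11 to 1.47 with adjusted p-values from 0.00092 to 0.621.

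Within a cluster, the share of each member in the cluster's counts removes what all its members have in common in a library. Pcdhgc4 made up 18.5%, 26.2%, 19.8% and 18.1% of gamma counts in young control and 16.8% to 20.6% in acute control. It made up 11.5%, 15.3%, 12.1% and 12.8% in old control and 10.9% to 13.6% in old Gly-Low. The 7 old libraries thus all lay below the 9 control libraries of young mice. The nearest pair was old control 2, at 15.3% with a Wilson 95% interval of 13.8% to 17.0%, and acute control 5, at 16.8% with an interval of 15.7% to 18.0%, intervals that cover counting error only. Acute Gly-Low lay at the old level, at 11.2% to 14%, with every library below acute control.

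In beta, Pcdhb6 made up 2.2% to 4.12% of the counts in those 9 libraries and 4.69% to 6.66% in the 7 old ones; in acute Gly-Low, from mice 4 months old, it made up 3.01%, 3.12%, 5.06% and 2.06%, so 1 library lay in the old range. Pcdhb8 and Pcdhb11 also had larger shares in all 7 old libraries, and Pcdhb7 and Pcdhb17 smaller ones, Pcdhb17 at 7.26% to 9.30% against 9.71% to 14.2%. The acute Gly-Low libraries were often on the side of the old ones: Pcdhb8 made up 3.88%, 5.28%, 4.88% and 5.83% there, Pcdhb11 6.72%, 6.72%, 4.62% and 3.7%, and Pcdhb17 8.79%, 8.34%, 11.9% and 6.79%. In all, 6 of the 54 members had shares that separated the 7 old libraries from the 9, 5 of them in beta, 1 in gamma and 0 in alpha. Shares were computed within the clusters alone, so they have no count over all genes beside them, and a larger share of one member lowers those of the others.

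**Figure D4:**
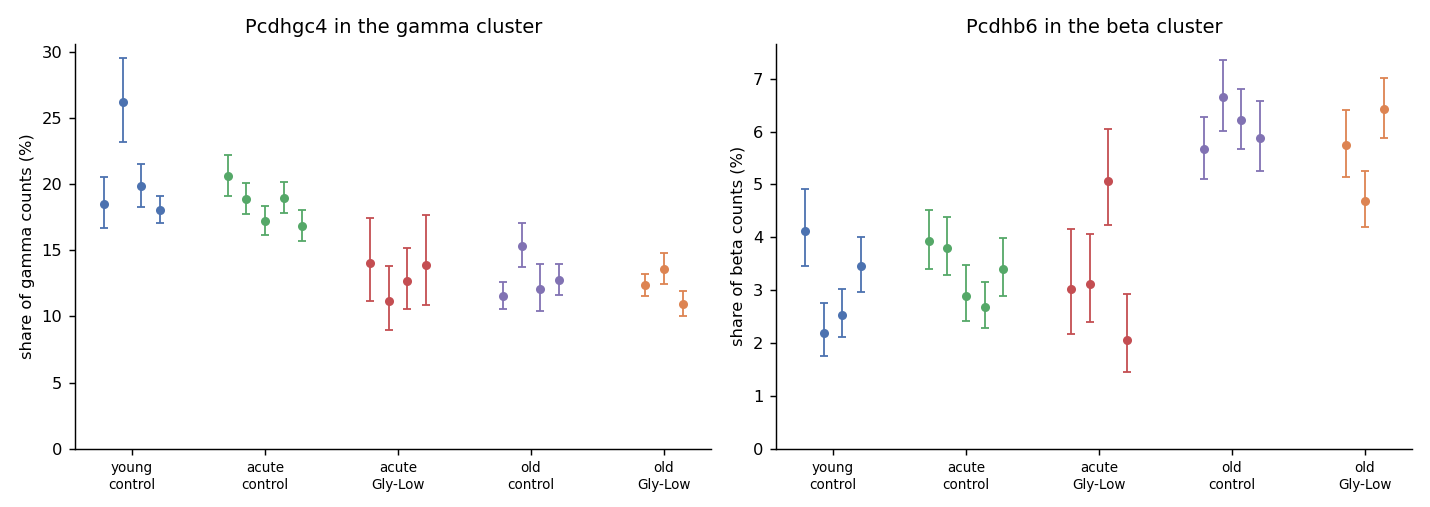
Share (%) of Pcdhgc4 in the gamma counts and of Pcdhb6 in the beta counts of each library (points) of the 5 groups, with Wilson 95% intervals as bars and axes from 0. Pcdhgc4 lies at 16.8% or more in every young and acute control library and at 15.3% or less in all others, and Pcdhb6 lies at 4.69% or more in every old library.

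Old Gly-Low and old control were compared with 0 members called, as were 0 of 18281 genes (0%). There were 0 members at an unadjusted p under 0.05, while 2.37% of all genes had such a p. DESeq2 also called 0 members, where 0.0164% of genes were called. It put 2 members under an unadjusted 0.05, where 3.72% of all genes were. All 20 gamma members had a positive difference, with a median log2 difference of 0.76 and a range from 0.21 to 1.01, while 53.3% of all genes were positive. The longest 20% of genes had a median of 0.28. All 20 regulators of the clusters were positive as well, with a median of 0.27. The gamma totals were 164, 99.2, 51.9 and 120 CPM in old control and 238, 134 and 158 CPM in old Gly-Low, so the groups overlap. The single libraries at the ends set much of this: the gamma median was 0.51 without old control 3, which has the lowest total and the lowest slope, and 0.43 without old Gly-Low 1, which has the highest of both. The same median was 0.16 once the length slope entered the model and 1.05 with the replicate number as a block, a fit in which 16 members and 17.6% of all genes had an unadjusted p under 0.05 and 0 passed. Beta had a median of -0.11 and alpha of 0.20.

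Among single genes the smallest p-values in this comparison belonged to Pcdhb13, at 5.18 to 6.42 CPM in old control and 7.07 to 8.31 CPM in old Gly-Low (0.44 ± 0.21, adjusted p = 0.953), and Pcdhb20, at 12.7 to 17.1 CPM against 10.6 to 12.3 CPM (-0.37 ± 0.18, adjusted p = 0.953). In gamma, Pcdhga3 came first at 0.90 ± 0.45. Only Pcdhb13 and Pcdhga11 lay wholly above old control, 2 of 54 members, where 3.16% of all genes did. The beta genes that were high in old control were no lower beyond the spread in old Gly-Low: Pcdhb6 read 11.6, 11.3 and 16.0 CPM (-0.25 ± 0.27) and Pcdhb11 9.81, 13.4 and 14.2 CPM (-0.26 ± 0.29). The age and old diet comparisons share the old control libraries.

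The 2 control groups of young mice, acute control and young control, were tested against each other on all 20 libraries, and 0 members were called. Over all genes 5.29% were called, 0.923% higher and 4.37% lower. At an unadjusted p under 0.05, reached by 20.7% of all genes, there were 2, Pcdhac2 (0.71 ± 0.31, adjusted p = 0.19) and Pcdhb10 (-0.45 ± 0.20, adjusted p = 0.194). Beta totals of the groups had a ratio of 0.991, while gamma members were all positive with a median of 0.49. Of all genes 52.2% were positive, and the longest 20% of genes had a median of 0.26. The limma-voom fit called 10 members higher, Pcdhac2 and 9 gamma genes with Pcdhgc3 and Pcdhgc4 among them, where 15.1% of all genes were called higher. It called Pcdhb10 lower, where 16.7% of all genes were called lower. Without young control 4, the library with the highest slope of its group and a gamma total of 209 CPM, edgeR called 8 higher, 7 of them in gamma, where 9.56% of all genes were.

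Within each group of the ageing arm the library with the lowest length slope also had the lowest gamma total and the one with the highest slope the highest; in acute control and acute Gly-Low the lowest of the 2 measures fell in different libraries. In young control, replicate 2 had the lowest slope (-0.27) and the lowest gamma total (41.8 CPM) but the highest beta total (194 CPM), and replicate 4 had the highest slope (0.22) and the highest gamma total (209 CPM). In old control, replicate 3 had the lowest slope and the lowest gamma total, with a beta total of 276 CPM. Between the lowest and highest library of a group, gamma differed 5.02-fold in young control and 3.16-fold in old control, beta 1.08-fold and 1.5-fold. The acute Gly-Low libraries, with slopes from -0.43 to -0.23, had the lowest beta totals, 69.2 to 101 CPM. Old control 3 and young control 2, with slopes of -0.20 and -0.27, had beta totals of 276 and 194 CPM. Acute Gly-Low 1, 2 and 4 had slopes below those of both, at -0.43, -0.31 and -0.29. The part of the slope in the beta totals was not tested beyond the fits above.

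**Figure D5:**
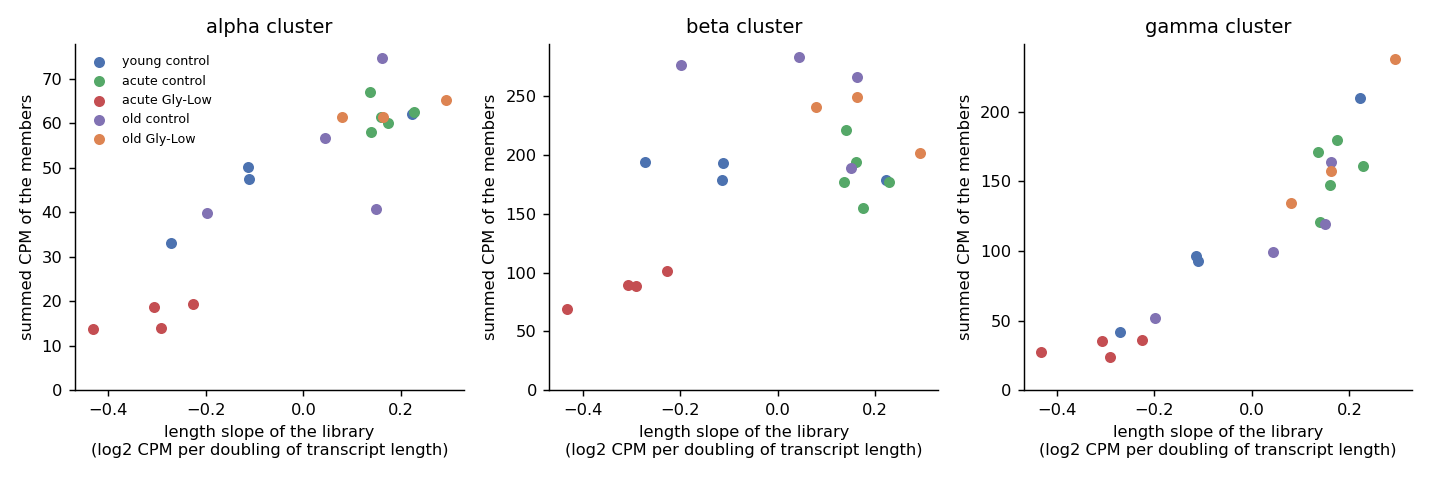
Summed CPM of the members of each cluster (vertical axes from 0) against the length slope of the library (horizontal axes), one point per library, coloured by group. Gamma totals reach from 24 CPM in acute Gly-Low to 238 CPM in old Gly-Low 1, the library of the highest slope, and in the beta panel the 4 acute Gly-Low libraries lie under 102 CPM while libraries of other groups with negative slopes lie between 179 and 276 CPM.

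The diet difference was compared between the arms by an interaction term on all 20 libraries. For 39 of 54 members the difference of the old arm was above that of the acute arm and for 0 below (10 alpha, 10 beta and 19 gamma members). Over all genes 16.8% were called higher and 19.2% lower. Of the longest 20% of genes, to which 36 members belong, 39.7% were called higher, with a median of 1.10. The median interaction was 3.25 on the log2 scale in gamma, 2.07 in alpha and 1.21 in beta, and 0.10 over all genes. Pcdhgc4 had the smallest p, at 3.46 ± 0.47 (edgeR adjusted p = 4.3e-05), and Pcdhac2 stood at 2.27 ± 0.47. The beta genes Pcdhb8, Pcdhb9 and Pcdhb11 did not pass, at 0.17, 0.17 and 0.10. With the length offset 23 members passed, where 9.96% of genes were called higher. With the length slope as a covariate 4 passed, where 4.17% of genes were called higher, and the median interaction was 1.87 in alpha, 1.27 in beta, 0.90 in gamma and -0.19 over all genes. Age, length of feeding and arm cannot be told apart in this comparison.

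Among the lists, 10 of 20 regulators passed as higher in this interaction, with Smchd1, a silencing factor of the clusters, at 1.30 ± 0.24. Over all genes 16.8% were called higher and 19.2% lower, and of the longest 20% of genes 39.7% were called higher. Of the non-clustered protocadherins 4 of 12 passed, and of the partners 10 passed as higher and 2 as lower of 19. None of the 3 lists had a member called in the age or the old diet comparison (0 by edgeR), and in the comparison of the 2 young control groups Brk1 was lower in acute control (-0.75 ± 0.20, adjusted p = 0.0332).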

How the data were processed

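The authors deposited whole-number counts for each gene from poly-A, non-directional libraries, per the labels' protocols, so reads of the 2 strands cannot be told apart. Per the submitters' processing notes the tools were featureCounts 1.5.0-p3, HISAT2 2.0.5 and DESeq2 1.20.0, and the build was GRCm38; the annotation release used for counting is not given in the sources used here. Total counts ran from 15848372 to 27399753 per library, 0 columns were duplicated, and 0 columns of per-sample values were left unused. Of the 54532 genes, 54495 matched GENCODE M21, which gave symbols, positions and exon lengths.

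The members and lists were chosen with earlier results of these data known. Each comparison was fitted in edgeR 4.0.16 (R 4.3.3) by its quasi-likelihood test after filterByExpr and TMM scaling, with Benjamini-Hochberg adjustment over all genes tested and a threshold of 0.05. The acute diet was fitted on its 9 libraries, age and old diet on the 11 of the ageing arm, and the other comparisons on all 20. CPM values are TMM-scaled, cluster totals and shares have no test, and levels between members are per kilobase of exon bases shared with no other gene. Alternatives were DESeq2 1.42.0, limma-voom (limma 3.58.1) with quality weights, other scalings, filters and fits, length corrections, the replicate block and leaving out libraries; the fit with acute control as the young reference, the shares set against both young control groups, the ratios between cluster totals and the fit without young controls 2 and 3 and old control 3 were chosen after seeing the data. The steps were tested on simulated counts.

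Named members are the C-type genes, the 3 highest per kilobase in each cluster, the 2 of smallest p in each direction, cluster and comparison, and all that passed where 5 or fewer did; named list genes are among the 3 of smallest p, and 1 that the rule names is not reported here. Members named for libraries that do not overlap, Pcdhb14, Ctcf, Stag2 and the other members given as ends of a range were chosen after their values were seen.

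Old control and old Gly-Low libraries of the same title number deviated together (correlations 0.417, 0.272 and 0.253), so the title numbers were used as pairs, although none of the 3 correlated best with its own number and the count columns of old Gly-Low 2 and 3 carry the numbers 4 and 5, so the pairing, and the blocked values with it, is uncertain. In the other comparisons the correlations, from -0.05 to 0.60, included values at or below 0, and the numbers were taken as names only.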

Additional observations from a re-analysis of the deposited data

Results flagged for a closer look

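The diet difference differed between the arms, by the interaction term in edgeR, for 39 members and for 10 of the members named: Pcdhgc5 (3.73), Pcdhgc4 (3.46), Pcdhga7 (3.00), Pcdha2 (2.53), Pcdhgc3 (2.30), Pcdhac2 (2.27), Pcdhb15 (2.2), Pcdhac1 (2.05), Pcdha9 (2.04) and Pcdhb3 (1.82), each value being the log2 difference of the old arm minus that of the acute arm. Over all genes, 36% were called in either direction and 16.8% higher.

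In 9 of 140 sets of 4 or 5 libraries tested, 1 library stood apart from the others of its group by Dixon's ratio of the gap to the range; chance alone flags about 5% of such sets. Below the rest were Pcdhga1 in young control 2 (0.808 CPM, others 2.25 to 2.28; ratio 0.977), Pcdhgc5 in acute Gly-Low 1 (0.119, others 0.911 to 1.02; ratio 0.877), Pcdha9 in young control 3 (4.15, others 6.37 to 6.70; ratio 0.87) and Pcdhgc3 in acute control 1 (7.5, others 11.5 to 12.6; ratio 0.786). Above the rest were Pcdhga6 in old control 1 (15.3 CPM, others 10.1 to 10.2; ratio 0.97), Pcdhb21 in old control 1 (5.94, others 3.41 to 3.64; ratio 0.909), Pcdhb7 in acute control 1 (13.3, others 9.10 to 9.75; ratio 0.845), Pcdhb1 in acute Gly-Low 2 (0.538, others 0 to 0.0897; ratio 0.833) and Pcdhb11 in acute control 2 (7.88, others 5.30 to 5.98; ratio 0.738). Acute control 1 and old control 1 each stood apart for 2 genes.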

How the results depend on the processing

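The fall of the members in acute Gly-Low kept its direction in all 3 clusters under every alternative run, with 20 members lower with the length slope as a covariate. The age count of 0 higher became 7 by DESeq2, 8 by limma-voom, 2 in the fit on all 5 groups, 4 with the slope covariate (1 lower) and 2 with acute control as the reference. Between the young groups limma-voom called 10 higher and 1 lower, and leaving out 1 library gave 0 to 8 higher. The interaction called 23 with the length offset (9.96% of all genes higher) and 4 with the slope covariate. The replicate block changed no count of calls by over 1.5 times (47 lower in acute diet, 0 in age, old diet and young groups, 37 in the interaction); it moved the gamma median of the old diet to 1.05, by title numbers that the column names do not share. On total counts the log2 ratio of cluster totals in the acute arm was -2.23 for alpha and -1.40 for beta (TMM-scaled -1.91 and -1.08). With merged exon length or no length, Pcdhb12 ranked 15 and 17 in its cluster, and Pcdha12 and Pcdhgc3 each 5 and 4.

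Signs of these log2 differences changed, and the cause was not tested. With the slope covariate: acute diet Pcdhgc3 1.04 and Pcdhgc5 0.27, age Pcdhgc3 -0.12 and Pcdhga5 -0.026, old diet Pcdhac2 -0.0086, young groups Pcdhgc3 -0.15, Pcdhgc4 -0.22, Pcdhgc5 -1.14 and Pcdhga7 -0.014, interaction Pcdhgc3 -1.03 and Pcdhgc5 -0.22. With acute control as the reference, age was -0.44 for Pcdhac2, -0.58 for Pcdhgc3 and -0.59 for Pcdhga5. By limma-voom, age Pcdha2 was 0.29, old diet Pcdhac2 -0.019, Pcdhgc5 -0.20 and Pcdha12 0.017, and young groups Pcdhac1 0.049 and Pcdha2 0.072. Without young control 2 and old control 3, age Pcdhgc3 was -0.059 and Pcdhb7 0.060; without young control 3 as well they were -0.54 and 0.21, and young groups Pcdhac1 0.074, Pcdhgc3 -0.15 and Pcdhgc5 -0.60. With the length offset, young groups Pcdhgc5 was -0.018 and Pcdhb16 -0.023, and without acute control 2, 3 and 5 Pcdhgc5 was -0.45. Leaving out 1 library gave -0.013 to 0.63 for age Pcdhac2, -0.26 to 1.06 for age Pcdhgc3, -0.38 to 0.0060 for age Pcdhb7, -0.17 to 0.14 for old diet Pcdha12, -0.20 to 0.054 for young groups Pcdhac1 and -0.27 to 0.82 for young groups Pcdhgc5. Members under about 1 CPM, such as Pcdha8 and Pcdhb1 in young control, are limited by counting error.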

Other observations

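Along the beta cluster, the age difference was larger in the first 11 genes than in the rest, a division chosen after the values were seen and not tested. From Pcdhb1 to Pcdhb11 the median log2 difference of old control against young control was 0.89, with 10 of 11 members positive, and Pcdhb7 was the exception at -0.21. From Pcdhb12 to Pcdhb22 it was 0.07, with 9 of 11 positive.

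Genes between or beside the beta and gamma clusters, taken by position, did not all follow them in acute Gly-Low. Over all genes, 27.8% were called higher and 30.5% lower in this comparison. Taf7, a subunit of the general transcription factor TFIID on the minus strand, rose by 0.81 ± 0.13 on the log2 scale (edgeR adjusted p = 0.00011). The non-coding gene 3222401L13Rik rose by 0.73 ± 0.25 (adjusted p = 0.0201) and the transcribed processed pseudogene Gm8242 by 2.07 ± 0.52 (adjusted p = 0.0034). Pcdhgb8, a gamma gene annotated as a polymorphic pseudogene and so not a member, had -1.77 ± 0.50 (adjusted p = 0.0071). Diaph1, next to the gamma cluster on the minus strand, had -0.79 ± 0.17 (adjusted p = 0.00099). Gm10544, a processed transcript on the minus strand, did not pass, at -0.65 ± 0.42 (edgeR adjusted p = 0.193).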
